A study of Mus musculus with 6 samples.

Results

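The 10 genes described here were chosen as markers of fibroblasts of the meninges and of nerve sheaths. They were read in bulk RNA sequencing of mouse optic nerve, which does not show which cells made a transcript. They were taken by symbol, and all 10 were found among the 25755 genes of the deposited table. The table compares the optic nerves of 3 mice with sham surgery (mice 1, 2 and 3) and 3 mice with optic nerve crush (ON-CR; mice 4, 5 and 6). All 6 mice carried the genotype NF1flox/flox;hGFAP-Cre, in which a human GFAP promoter drives Cre recombinase, so that Nf1 is lost from neuroglial progenitors and the cells they give rise to. Surgery was at 6 weeks and analysis at 12 weeks of age, which the labels give as 3 months, and the sham operation was an incision without crush. RNA came from optic nerves of perfused mice and not from sorted cells, and values are relative to the rest of each library. Fewer fibroblasts, less RNA per fibroblast and more RNA from other cells therefore cannot be told apart. The paper reports optic gliomas in mice of this genotype after ON-CR, with greater nerve volume, cellularity and GFAP expression than after sham surgery. Whether such growth lowered the share of fibroblast RNA was not tested.

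The optic nerve is wrapped by dura, arachnoid and pia mater, as the brain is. Fibroblasts of these layers lay down collagen, small leucine-rich proteoglycans and fibronectin, and the arachnoid and pia carry transporters that clear solutes from cerebrospinal fluid. The 10 genes cover these roles. Dcn, Lum and Ogn encode the small leucine-rich proteoglycans decorin, lumican and osteoglycin, which bind collagen fibrils, and Fn1 encodes fibronectin. Slc6a13 encodes the GABA transporter GAT2 and Slc22a6 the organic anion transporter OAT1, both known from the leptomeninges. Foxc1 is a forkhead transcription factor needed for the development of the meninges. Igfbp2 encodes a secreted binding protein of insulin-like growth factors, Pdgfrl a protein related to the receptors of platelet-derived growth factor, and Islr a membrane protein with leucine-rich repeats that marks stromal fibroblasts.

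Values are estimated counts that the authors scaled by 1 factor per library. The libraries held 17414091 to 23621006 estimated reads, with the 3 sham libraries the deeper ones. Each of the 10 genes had at least 261 estimated reads in each library, far above the level of single reads. Some features of the libraries moved with the groups. Xist, transcribed from the inactive X chromosome, was between 2.14 and 30.9 in sham mice and reached 2708 to 6357 after ON-CR. The Y-linked gene Ddx3y was at 1291 to 1645 in sham mice, while ON-CR mice 4, 5 and 6 gave 976, 4.19 and 0, so sex and surgery cannot be told apart for any gene. The library labelled ON-CR mouse 4 carried both transcripts, with Xist at 2708, unlike the other 5, and whether it holds RNA of a single mouse was not tested. The labels name 1 mouse for each library. The methods describe a pair of mice per sample for RNA used in PCR and do not say this of sequencing, so n counts libraries here. The summed value of 5 oligodendrocyte markers was 446188 to 558055 in sham mice and 226411 to 308125 in ON-CR mice, and limma called all 5 of them lower. Nasal and airway epithelial transcripts (4 of a list of 5 were in the table) summed to 7815 in sham mouse 3 and to 5349 and 6127 in ON-CR mice 5 and 6, against 29.7 or less in the other mice. Plasma cell transcripts summed to 119494 in ON-CR mouse 6 and to 2899 or less elsewhere. No gene of the lists for endothelium, pericytes and smooth muscle, Schwann cells, choroid plexus or astrocytes was called. Summed markers of pericytes and smooth muscle were at 2650 to 3318 in sham mice and 3249 to 3973 after ON-CR, with a median log2 fold change of 0.19. Summed markers of endothelium were at 2575 to 2976 in sham mice and 2273 to 3076 after ON-CR, those of Schwann cells at 565 to 1312 and 362 to 691, those of choroid plexus at 282 to 398 and 222 to 327, and those of astrocytes at 155308 to 186518 and 230009 to 267147. Summed markers of microglia were at 9100 to 11867 in sham mice and 9834 to 15120 after ON-CR, with 1 of 5 called higher. The astrocyte sums did not overlap between the groups, being higher in each ON-CR library. Sums of bone and cartilage did not overlap either, at 159 to 184 in sham mice against 243 to 301, nor did those of retinal pigment epithelium (3 of 6 in the table), at 763 to 778 against 503 to 721. In none of these lists was a gene at 0 in all 6 libraries. The part of any of these in the values below was not tested.

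Of the 10 genes, 8 had a lower mean after ON-CR, against 51.9% of all genes with a mean value of at least 50. The other 2 had a higher mean, and none of the 10 passed the test. On simulated tables of this design the test recovered 197 of 200 genes changed 4-fold, but 0 of 200 changed 2-fold or 1.5-fold. Missing the threshold does not show that the 10 genes were unchanged. In the real data some genes with changes under 2-fold were called, such as Cdh1 at a log2 fold change of -0.80. The simulation is therefore not a measure of the sensitivity of the test on the real data. No gene of the 10 reached an adjusted p at or under 0.05 in limma, with the p-values adjusted over all 25755 genes, where 0.971% of all genes were called higher and 1.13% lower. None passed the limits given in the study's methods, a p of 0.05 or less before adjustment with a change of 2-fold or more. These limits were applied here to limma over all genes, where 3.17% of all genes passed as higher and 1.49% as lower. The paper's results text states other, stricter limits for this sequencing, with a false discovery rate and a larger change, which were not applied here. At an unadjusted p at or under 0.05 alone there were 6 of the 10, 5 of them lower and 1 higher, against 15.6% of all genes. The median log2 fold change of the 10 was -0.34, against 0.03 over all genes tested. With libraries scaled to equal totals these medians were -0.22, with 7 of the 10 below 0, and 0.15. No overlap between groups was seen for 4 genes that were lower after ON-CR (Slc6a13, Slc22a6, Fn1 and Islr), where 11.0% of all genes were lower without overlap, and for 1 gene that was higher (Igfbp2), where 10.5% were. When each library was scaled to the same total instead, 0 of the 10 genes were lower without overlap, against 6.46% of all genes, and Igfbp2 remained higher without overlap, against 16.6%. For 9 of the 10 genes the 95% interval of the fold change lay within a 2-fold change in either direction, and only that of Slc6a13 reached past it. Without the library of ON-CR mouse 4 none of the 10 passed either, the median was -0.41, and the log2 fold changes were -0.81 for Slc6a13, -0.53 for Slc22a6 and Dcn, -0.50 for Fn1, -0.44 for Islr, -0.38 for Ogn, -0.13 for Foxc1, -0.12 for Lum, -0.06 for Pdgfrl and 0.38 for Igfbp2. Without ON-CR mouse 5 instead, the median was -0.25. Most decreases were then smaller, while that of Lum went from -0.28 to -0.31 and Pdgfrl was above 0. Log2 fold changes were -0.38 for Slc6a13, -0.25 for Slc22a6 and for Fn1, -0.35 for Islr, -0.33 for Dcn and -0.01 for Ogn. They were 0.10 for Pdgfrl, 0.26 for Foxc1 and 0.59 for Igfbp2, which then passed the test.

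**Figure D1:**
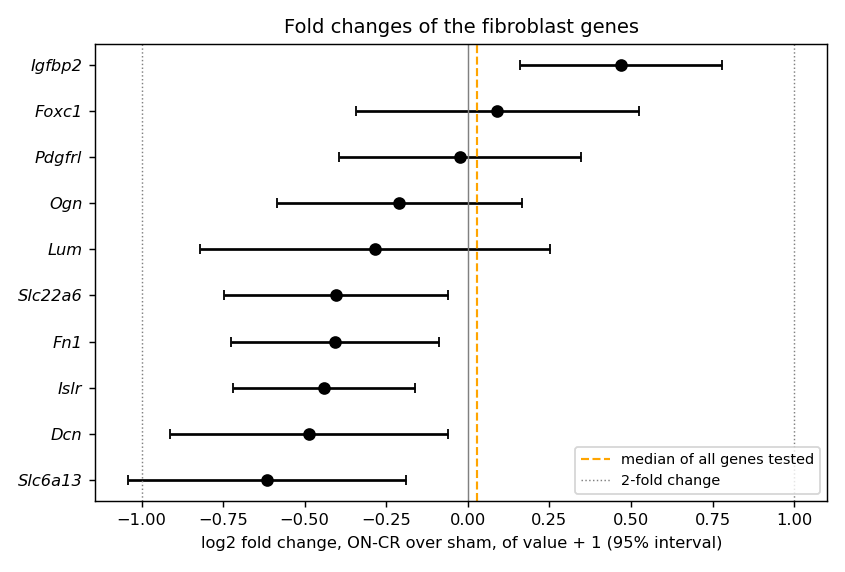
The log2 fold change of each of the 10 genes, ON-CR over sham, with its 95% interval from limma (n = 3 libraries per group), beside the median of all genes (dashed line, 0.03) and a 2-fold change (dotted lines). Slc6a13 lies lowest at -0.62 and Igfbp2 highest at 0.47.

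The promoters of the 2 transporter genes and of Igfbp2 are shown because the transporters had the same order of the 6 mice and Igfbp2 lay on the other side of the sham values. RefSeq start sites of GRCm38.p6 gave a window of 300 bases, from 250 before to 50 after the start, for 6 of the 10 genes. The window of Slc6a13 is chr6:121300038-121300337 (plus strand), that of Slc22a6 is chr19:8617746-8618045 (plus strand) and that of Igfbp2 is chr1:72824230-72824529 (plus strand). Capitals mark the letters of 4 motifs that were searched on both strands. These were the sequence TATAAA for the first, the pentamer CCAAT for the second, the GC box GGGCGG for the third, and for the last the forkhead core TGTTTAC, a kind of motif that factors such as Foxc1 bind.
Slc6a13: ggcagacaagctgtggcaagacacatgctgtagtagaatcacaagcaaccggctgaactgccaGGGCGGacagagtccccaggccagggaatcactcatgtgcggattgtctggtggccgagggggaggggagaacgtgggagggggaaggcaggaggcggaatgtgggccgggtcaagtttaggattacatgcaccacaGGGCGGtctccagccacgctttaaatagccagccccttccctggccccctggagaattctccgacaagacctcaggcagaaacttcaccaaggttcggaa
Slc22a6: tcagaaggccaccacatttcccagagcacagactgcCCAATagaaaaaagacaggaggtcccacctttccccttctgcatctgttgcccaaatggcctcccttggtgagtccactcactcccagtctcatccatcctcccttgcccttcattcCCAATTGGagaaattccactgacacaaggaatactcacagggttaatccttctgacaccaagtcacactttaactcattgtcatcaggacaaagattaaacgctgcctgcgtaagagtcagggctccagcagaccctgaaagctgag
Igfbp2: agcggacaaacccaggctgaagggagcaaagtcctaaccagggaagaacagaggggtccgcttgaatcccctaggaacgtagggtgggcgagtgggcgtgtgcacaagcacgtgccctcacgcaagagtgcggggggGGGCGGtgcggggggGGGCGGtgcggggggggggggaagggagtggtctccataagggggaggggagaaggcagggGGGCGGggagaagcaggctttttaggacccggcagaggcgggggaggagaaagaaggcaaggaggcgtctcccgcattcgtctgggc
Slc6a13 held 2 GC boxes on the forward strand, and Igfbp2 held 3. Slc22a6 held CCAAT 2 times on the forward strand and 1 time on the reverse strand, where the reverse match overlaps a forward one. Of the 32851 promoter windows in the same table, 35.66% held GGGCGG, while 37.41% held the CCAAT pentamer, 13.62% the TATA box and 3.65% the forkhead core, so the 2 motifs found are common ones. The G and C content was 59.0% for Slc6a13 and 67.0% for Igfbp2, against a median of 52.7% over all windows, and that of Slc22a6 was below this median. In the windows shown, the 2 transporter promoters shared none of the 4 motifs. RefSeq start sites gave 3 windows for Slc6a13 and 2 for Igfbp2, and motifs are given only for the window shown.

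**Figure D2:**
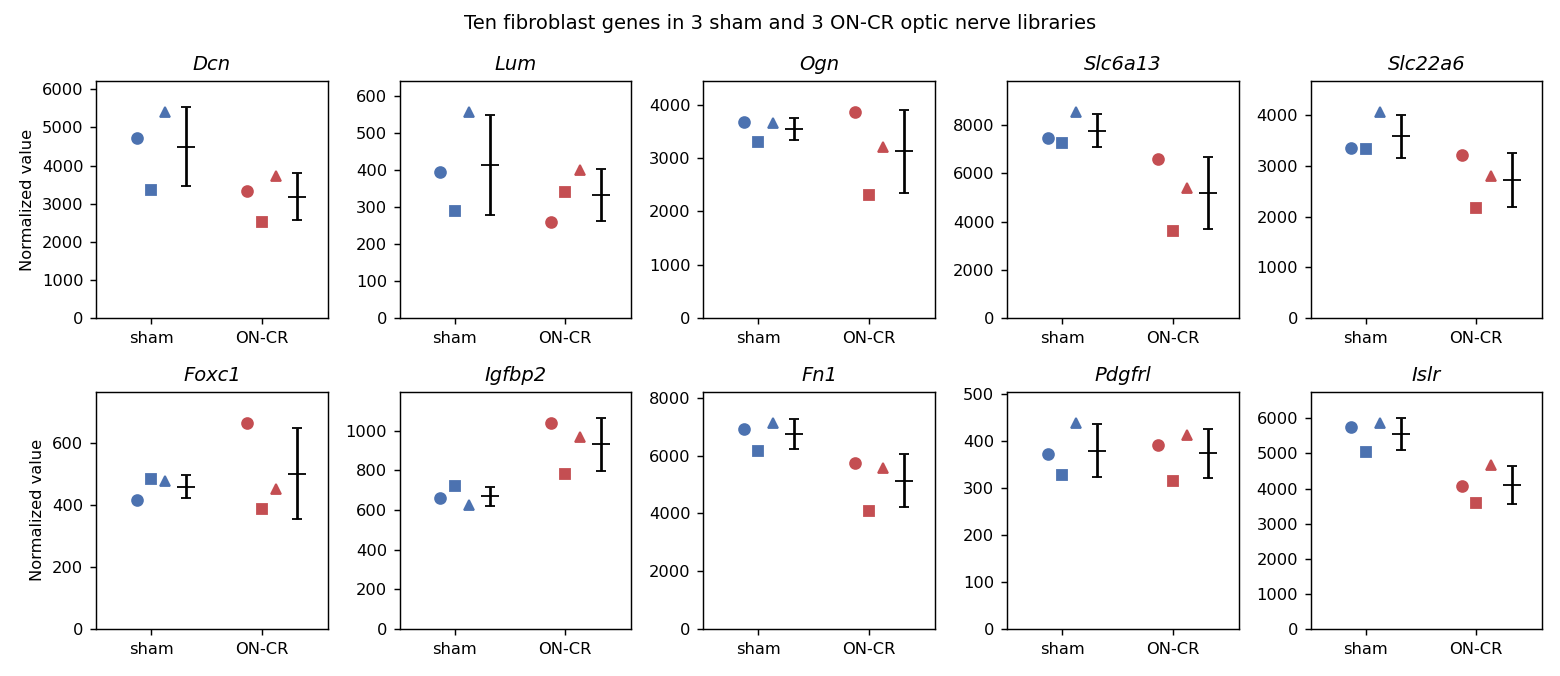
Normalized value (linear axis from 0) of each of the 10 genes in every library, sham in blue and ON-CR in red. Circles, squares and triangles are mice 1, 2 and 3 in the sham group and mice 4, 5 and 6 in the ON-CR group, and bars give the mean and SD (n = 3). The square of ON-CR mouse 5 is the lowest ON-CR point in 9 of 10 panels.

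Both barrier transporters were lower in every ON-CR mouse than in any sham mouse. Slc6a13 (ENSMUSG00000030108.14, chromosome 6 from 121300227 to 121337733 in GRCm38) gave 7469, 7273 and 8544 in the 3 sham libraries, against 6595, 3628 and 5394 for ON-CR mice 4 to 6. The sham mice lay close together, and ON-CR mouse 5 was the lowest of the 6 by a wide margin. The means were 7762 ± 684 and 5206 ± 1492 (SD, n = 3 each), with a log2 difference of -0.62 (SE 0.19, 95% interval -1.04 to -0.19, limma adjusted p = 0.147). Leaving out single mice gave limma adjusted p values between 0.0554 (ON-CR mouse 4 left out) and 0.343 (ON-CR mouse 6 left out). Slc22a6 (ENSMUSG00000024650.5, chromosome 19 from 8618039 to 8628299) gave 3356, 3325 and 4062 in the 3 sham libraries, against 3222, 2167 and 2800.4 for ON-CR mice 4 to 6, in the same mouse order as Slc6a13. The gap between ON-CR mouse 4 and sham mouse 2 was smaller than the SD of either group. Its means were 3581 ± 416 and 2730 ± 531 (SD, n = 3 each), with a log2 difference of -0.40 (SE 0.15, limma adjusted p = 0.237).

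Fn1 and Islr showed the same separation of the groups. Fn1 (ENSMUSG00000026193.15, chromosome 1 from 71585520 to 71653200, minus strand) gave 6935, 6152 and 7141 in the 3 sham libraries, against 5757, 4084 and 5559 for ON-CR mice 4 to 6. All 3 ON-CR mice were below all 3 sham mice, and the order of the 6 mice was again that of Slc6a13. The log2 difference was -0.41 (SE 0.14, limma adjusted p = 0.199), from 6743 ± 522 to 5134 ± 914 (SD, n = 3 each). The antisense gene Apol7d overlaps exons of Fn1, but its mean value over the libraries was 3.48. Islr (ENSMUSG00000037206.15, chromosome 9 from 58156268 to 58204306, minus strand) gave 5753, 5027 and 5876 in the 3 sham libraries, against 4060.0, 3582 and 4661 for ON-CR mice 4 to 6. Its ON-CR values were the most even of the 4 genes without overlap that were lower, and it stood at 5552 ± 459 and 4101 ± 541 (SD, n = 3 each), with the lowest unadjusted p of the 10 genes. Its log2 difference was -0.44 (SE 0.13, limma adjusted p = 0.113). Islr2, with a mean value of 8 over the libraries, shares exon sequence with Islr. With 3 mice against 3, an exact permutation test cannot go below a two-sided p of 0.1, which these 4 genes and Igfbp2 reached.

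The proteoglycan genes overlapped between the groups. Dcn (ENSMUSG00000019929.16, chromosome 10 from 97479609 to 97518143) gave 4710.4, 3362 and 5405 in the 3 sham libraries, against 3322, 2516 and 3723 for ON-CR mice 4 to 6. Sham mouse 2 was below ON-CR mouse 6, so the spread within the sham group covered part of the difference. The log2 fold change of Dcn was -0.49 (95% interval -0.91 to -0.06, limma adjusted p = 0.253). Lum (ENSMUSG00000036446.5, chromosome 10 from 97565128 to 97572703), which lies next to Dcn, gave 395, 291 and 558 in the 3 sham libraries, against 260.2, 341 and 399.8 for ON-CR mice 4 to 6. The 6 mice were interleaved, and Lum had the widest spread of the 10 genes within the sham group, with a coefficient of variation of 32.4%. Its log2 fold change was -0.28 (95% interval -0.82 to 0.25, limma adjusted p = 0.627), with -0.05 when sham mouse 3 was left out and -0.51 when sham mouse 2 was. Ogn (ENSMUSG00000021390.6, chromosome 13 from 49608046 to 49624501), inside the span of Cenpp on the other strand but without exon overlap, gave 3668, 3303 and 3663 in the 3 sham libraries, against 3865, 2316 and 3203 for ON-CR mice 4 to 6. ON-CR mouse 4 was the highest of all 6 mice and ON-CR mouse 5 the lowest. The log2 fold change of Ogn was -0.21 (95% interval -0.59 to 0.17, limma adjusted p = 0.603), with -0.01 when ON-CR mouse 5 was left out and -0.38 when ON-CR mouse 4 was.

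Igfbp2 was the gene with higher values in every ON-CR mouse than in any sham mouse. Igfbp2 (ENSMUSG00000039323.18, chromosome 1 from 72824503 to 72852474) gave 658, 719.8 and 625 in the 3 sham libraries, against 1040.0, 781 and 969 for ON-CR mice 4 to 6. The smallest gap was between sham mouse 2 and ON-CR mouse 5. The means were 668 ± 47.9 and 929.9 ± 134 (SD, n = 3 each), with a log2 difference of 0.47 (SE 0.14, 95% interval 0.16 to 0.78, limma adjusted p = 0.128). Without ON-CR mouse 5 the log2 fold change was 0.59 and the adjusted p 0.0423 by limma, and with libraries scaled to equal totals these were 0.60 and 0.0459. Over all settings tried, the adjusted p by limma was from 0.0423 to 0.358. Which cells of the nerve made the Igfbp2 transcripts was not tested.

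For Foxc1 and Pdgfrl the direction depended on single mice or on scaling. Foxc1 (ENSMUSG00000050295.4, chromosome 13 from 31806633 to 31812476) gave 416, 485 and 476 in the 3 sham libraries, against 666, 386 and 452 for ON-CR mice 4 to 6. ON-CR mouse 4 was the highest of the 6 and ON-CR mouse 5 the lowest, and the log2 fold change was 0.09 (95% interval -0.34 to 0.52, limma adjusted p = 0.874) and -0.13 without ON-CR mouse 4. Pdgfrl (ENSMUSG00000031595.9, chromosome 8 from 40926212 to 40990785) gave 372, 328 and 439.5 in the 3 sham libraries, against 393, 315 and 414 for ON-CR mice 4 to 6. The groups covered nearly the same range, and the log2 fold change was -0.02 (95% interval -0.40 to 0.35, limma adjusted p = 0.966). Pdgfrl changed sign without sham mouse 3 (0.09), without ON-CR mouse 5 (0.10), with equal library totals (0.10), with upper-quartile scaling (0.0060) and with array quality weights (0.048).

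The mice differed among themselves in a like way across the genes. ON-CR mouse 5 had the lowest value of the 3 ON-CR mice for 9 of the 10 genes, the exception being Lum, against 41.3% of all genes with a mean value of at least 50. Sham mouse 3 had the highest value of the 3 sham mice for 7 of the 10, against 29.1% of those genes. Relative to the sham mean on the log2 scale, the median difference over the 10 genes was -0.19, -0.62 and -0.19 for ON-CR mice 4, 5 and 6. Within the sham group it was -0.02, -0.11 and 0.11 in mice 1, 2 and 3. As a share of the whole library, the 10 genes together took 0.160%, 0.145% and 0.190% in sham mice 1, 2 and 3, against 0.154%, 0.110% and 0.146% for ON-CR mice 4, 5 and 6. By this share ON-CR mice 4 and 6 lay within the sham range, and ON-CR mouse 5 lay below it.

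**Figure D3:**
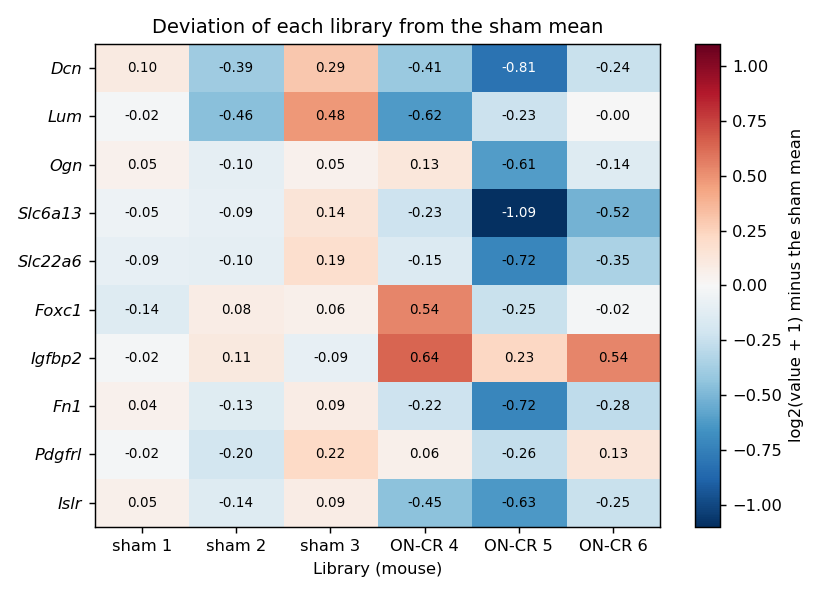
Difference of log2(value + 1) from the sham mean for each of the 10 genes (rows) in each library (columns), from blue (lower) to red (higher). The column of ON-CR mouse 5 is blue for 9 of 10 genes, down to -1.09 for Slc6a13, and the row of Igfbp2 is red in all 3 ON-CR libraries.

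Levels of different genes were compared per kilobase of annotated exon. In sham mice the mean normalized value per kilobase was 2673 for Slc6a13, 2067 for Islr, 1381 for Ogn, 899 for Slc22a6, 769 for Dcn, 577 for Fn1, 362 for Igfbp2, 169 for Lum, 122 for Pdgfrl and 78.6 for Foxc1. Neighbours in this order were separated in all sham mice, except Slc22a6 and Dcn, Dcn and Fn1, and Lum and Pdgfrl, whose ranges overlapped. In ON-CR mice the mean level per kilobase of Igfbp2 was 503 and that of Fn1 439, so the order of these neighbours was the other way round. Igfbp2 was above Fn1 per kilobase in each ON-CR mouse (563 against 493 in mouse 4, 423 against 349.5 in mouse 5 and 525 against 476 in mouse 6), and below it in each sham mouse. The transporter Slc6a13 had the highest level per kilobase of the 10 genes in ON-CR mice 4 and 6 (2271 and 1858). In ON-CR mouse 5 Islr, at 1334, was above Slc6a13, at 1249.

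Other proteoglycan genes lie beside these members on the same chromosomes. Dcn and Lum share chromosome 10 with Epyc, which encodes epiphycan, a cartilage proteoglycan. Epyc gave 0, 0.885 and 0.939 in the 3 sham libraries, against 6.98, 5.24 and 3.12 for ON-CR mice 4 to 6, so it was close to the level of single reads throughout. Ogn follows Ecm2, Aspn and Omd on chromosome 13, whose products are matrix proteins of the same family. Ecm2 had means of 588 and 527 in sham and ON-CR mice and overlapped. Omd, osteomodulin, gave 429, 402 and 403 in the 3 sham libraries, against 343, 266 and 317 for ON-CR mice 4 to 6, lower in each ON-CR mouse (log2 fold change -0.42, limma adjusted p = 0.198). Aspn, asporin, gave 157, 63.7 and 62.0 in the 3 sham libraries, against 51.8, 38.8 and 46.7 for ON-CR mice 4 to 6, so sham mouse 1 stood above the other mice. Of the 12 further family members in the table, 0 were called in either direction, with a median log2 fold change of -0.24 (-0.16 without ON-CR mouse 5). The most abundant were Fmod (fibromodulin), at 10569 ± 744 and 9389 ± 1733, Prelp, at 6579 ± 584 and 6554 ± 780, and Bgn (biglycan), at 4103 ± 546 and 3139 ± 422 (SD, n = 3 each, sham and ON-CR), and of these Bgn did not overlap between the groups.

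Further genes of fibroblasts and sheath cells were read from lists, with the background shares of called genes given above (0.971% higher, 1.13% lower). In the list of fibrillar and microfibril matrix, 2 of 23 genes were called lower and 0 higher. The log2 fold change was below 0 for 20 of 23. Its median was -0.35, or -0.19 when ON-CR mouse 5 was left out. Fbln1, which encodes fibulin-1, fell from 4261 ± 340 to 2053 ± 473 (SD, n = 3 each; log2 fold change -1.07, limma adjusted p = 0.00815). Loxl1, an enzyme that cross-links elastin, fell from 341 ± 75.9 to 173 ± 25.8 (log2 fold change -0.96, limma adjusted p = 0.0403), a call lost with equal totals (0.0656) and no trend (0.222). The most abundant collagen genes did not pass, with Col1a1 at 4514 ± 980 and 2821 ± 955 and Col1a2 at 6313 ± 568 and 5424 ± 1240 in sham and ON-CR mice, nor did Pcolce, at 5380 ± 909 and 3852 ± 841. In the list of leptomeningeal transport, adhesion and secreted genes, 2 of 23 were called lower and 0 higher. For 22 of 23 the log2 fold change was below 0, against 51.9% of all genes with a mean value of at least 50. The median was -0.40 (-0.25 without ON-CR mouse 5). Slc47a1, an exporter of organic cations, fell from 2572 ± 480 to 1369 ± 297 (log2 fold change -0.91, limma adjusted p = 0.0325), a call lost with equal totals (0.0571) and no trend (0.249). Cdh1, the E-cadherin of the arachnoid barrier and of epithelia, fell from 2067 ± 454 to 1173 ± 160 (log2 fold change -0.80, limma adjusted p = 0.0498). This call of Cdh1 was at the edge of the threshold and was lost with TMM scaling (0.0563), upper-quartile scaling (0.0586), equal totals (0.0915), a pseudocount of 0.1 (0.0605), a mean value of at least 10 (0.0533), array quality weights (0.0659) and no trend (0.28). The abundant genes Gjb6, Slc13a4 and Mgp of this list had log2 fold changes of -0.42, -0.31 and -0.28 and did not pass. Whether the transcripts of this list came from leptomeningeal cells or from other cells of the nerve was not tested.

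The list of activated and scar-forming fibroblast genes had a median above 0, and its difference from the lists above was not tested. Of 18 in the table, 2 were called higher and 0 lower, with a median log2 fold change of 0.19. That median was not stable, at 0.05 without sham mouse 1 and 0.08 without ON-CR mouse 4 or 6, against 0.40, 0.32 and 0.35 without sham mouse 2, sham mouse 3 and ON-CR mouse 5. Timp1, an inhibitor of matrix metalloproteinases, rose from 155 ± 17.8 to 506 ± 67.6 (SD, n = 3 each; log2 fold change 1.70, limma adjusted p = 0.0015). Ccn1, a matricellular protein of the early response to injury, rose from 302 ± 107 to 903 ± 311 (log2 fold change 1.56, limma adjusted p = 0.0274). Both genes are made by other cells of injured nerve too, among them astrocytes and vascular cells. The abundant genes Ccn2, Thbs2 and Tgfbi of this list did not pass, with log2 fold changes of 0.20, -0.41 and -0.08. Of 12 fibronectin receptor and cross-linking genes, 1 was called lower and 0 higher, with a median of 0.22 (0.13 without ON-CR mouse 6). It was Itgb3, the integrin beta 3 subunit, which fell from 192 ± 17.5 to 92.3 ± 14.6 (log2 fold change -1.05, limma adjusted p = 0.0287), while Itgb1, the common beta subunit of fibronectin receptors, was at 2208 ± 133 and 2075 ± 227. Itgb8 and Sdc4 had log2 fold changes of 0.01 and 0.24.

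Around Igfbp2, 13 genes of the insulin-like growth factor axis were in the table, and 1 was called lower and 1 higher, with a median log2 fold change of -0.26 (-0.10 without ON-CR mouse 5, -0.16 without ON-CR mouse 6 and -0.17 without sham mouse 2). Igfbp4 fell from 1568 ± 466 to 763 ± 124 (SD, n = 3 each; log2 fold change -1.01, limma adjusted p = 0.0317). Igfbpl1, a gene related to the binding proteins, was at 0, 0.885 and 0.939 in sham mice, no more than 1 estimated read each, and at 28.9, 18.9 and 38.4 in ON-CR mice (limma adjusted p = 0.00661). Igfbp5, Igfbp6 and Igf2, the most abundant genes of the axis, had log2 fold changes of -0.30, -0.61 and -0.21 and did not pass. Around Foxc1, 0 of 20 mesenchymal and meningeal transcription factors were called, with a median of -0.27 (-0.12 without ON-CR mouse 5). The most abundant were Osr1, at 1673 ± 82.6 and 1377 ± 372, Zic1, at 495 ± 52.1 and 606 ± 90.1, and Zic4, at 479 ± 91.3 and 519.9 ± 56.4 (sham and ON-CR). Of 7 fibroblast receptor genes 0 were called (median -0.35, and -0.22 without ON-CR mouse 5), with Pdgfra, which oligodendrocyte precursors also express, at 1581 ± 37.1 and 1304 ± 173, and with log2 fold changes of -0.35 for Pdgfrb and -0.24 for Ddr2. Of 8 perineurial sheath genes 1 was called lower (median -0.34, and -0.16 without ON-CR mouse 5), namely Itgb4, a laminin receptor subunit, from 3217 ± 340 to 1721 ± 491 (SD, n = 3 each; log2 fold change -0.93, limma adjusted p = 0.0296). Kcnj13 and Slc2a1 of that list had log2 fold changes of -0.32 and -0.08.

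Most of these 10 calls were lost when some single mouse was left out, while the fold changes kept their direction. Across the mice left out, the log2 fold change was between -1.25 and -0.94 for Fbln1, between -1.12 and -0.80 for Loxl1, between -1.13 and -0.92 for Itgb3 and between 1.37 and 1.89 for Ccn1, so the lost calls do not show that these differences rest on 1 mouse. Timp1 kept its call whichever mouse was left out (limma adjusted p between 0.00059 and 0.0341), and it was the 1 gene of the 10 still called without ON-CR mouse 6. Limma adjusted p values then were 0.0763 for Fbln1, 0.192 for Loxl1, 0.205 for Slc47a1, 0.202 for Cdh1, Itgb4 and Ccn1, 0.206 for Igfbp4, 0.074 for Igfbpl1 and 0.123 for Itgb3. Without sham mouse 2, 3 of the 10 were called (Cdh1, Igfbpl1 and Timp1), and without sham mouse 3, 3 were called (Igfbpl1, Ccn1 and Timp1). The highest adjusted p among those lost was 0.208 without sham mouse 2 (Loxl1) and 0.162 without sham mouse 3 (Cdh1). Without sham mouse 1, 4 were called (Fbln1, Igfbp4, Igfbpl1 and Timp1), and the highest adjusted p was 0.177 (Cdh1). Without ON-CR mouse 4, Cdh1 and Ccn1 were lost (0.067 each), and without ON-CR mouse 5, Cdh1 (0.0692) and Loxl1 (0.0548). In limma without a mean-variance trend, 0 of the 10 were called (adjusted p between 0.071 and 0.28), and in the robust fit Ccn1 was not (0.0891).

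**Figure D4:**
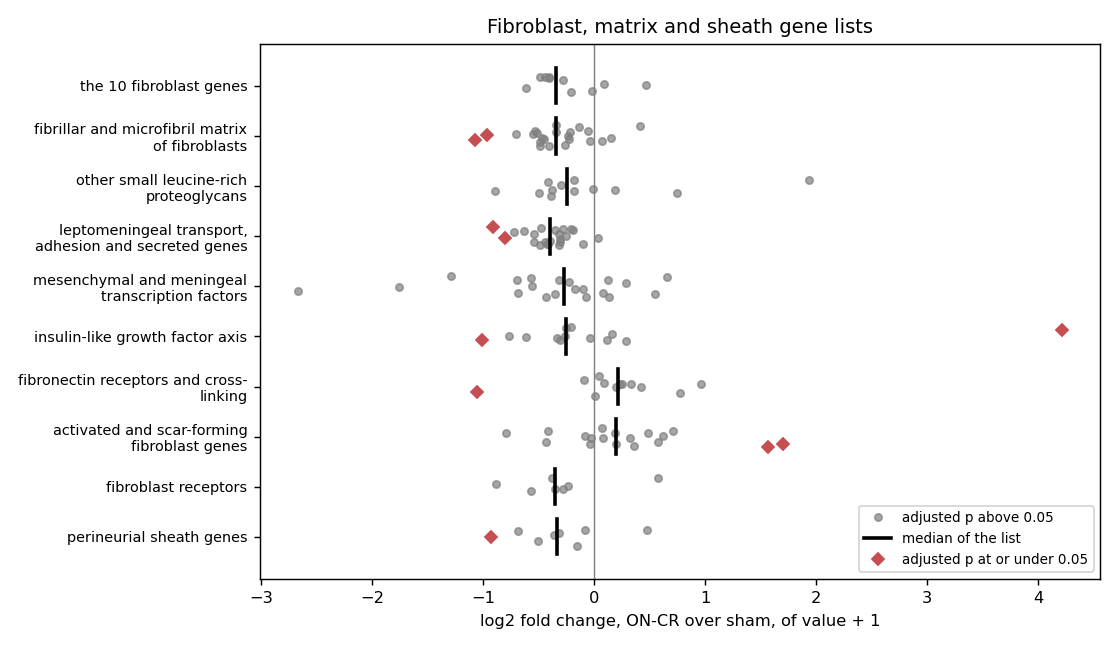
Log2 fold change, ON-CR over sham, of every gene of the 10 fibroblast genes and of 9 lists. Red diamonds are genes at an adjusted p at or under 0.05 (limma, over all genes), grey circles the others, black bars the medians, and the vertical scatter carries no meaning. The medians lie left of 0 in 8 rows and right of 0 for fibronectin receptors and activated fibroblast genes.

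The pattern most like the mean pattern of the 10 genes over the 6 libraries, among genes with a mean value of at least 50, was that of Serpinh1, which encodes a chaperone of collagen. It differed from the mean pattern by a root mean square of 0.03 on the log2 scale over 6 libraries. Eya1, Ptgds and Vtn were also among the 5 nearest genes, each at 0.05. Eya1 encodes a transcriptional coactivator, Ptgds a prostaglandin D synthase made by leptomeninges and oligodendrocytes, and Vtn vitronectin. Serpinh1 gave 3957, 3887 and 4661 in the 3 sham libraries, against 4027, 2964 and 3839 for ON-CR mice 4 to 6, with ON-CR mouse 5 lowest, sham mouse 3 highest and the groups overlapping. Of the 10 genes themselves, Fn1 (0.10), Ogn (0.10) and Slc22a6 (0.11) lay nearest to their mean pattern, and Lum (0.31) and Igfbp2 (0.38) farthest from it.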

How the data were processed

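RNA of optic nerves was sequenced by the study as 3 sham and 3 ON-CR libraries, grouped by the sample labels. The authors aligned and quantified reads with DRAGEN, using Ensembl gene models (mm10), then median-normalized the values with Partek Flow 10.0. The deposited table holds this normalized signal per gene, which is not whole counts. Reads per library were estimated from the value of 1 read, the most frequent low value.

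All 25755 genes were tested on log2(value + 1) with limma 3.58.1 (R 4.3.3), using its trend option, and p-values were adjusted by Benjamini-Hochberg. No low-value filter was used. The test was checked on simulated data, where it recovered large changes but not changes of the size seen in the 10 genes. The simulation used a common log2 spread for all genes, unlike the real data, so it does not measure sensitivity there. Fold changes and log2 differences are on that scale and understate changes of low genes. The 10 genes and the lists were chosen with earlier results of these data known, so no test was made over them as sets. Named genes are the 10, genes of each list with an adjusted p at or under 0.05 and its 3 most abundant genes, proteoglycan genes beside a member, and the 5 with the nearest pattern, of which 1 is not reported here. Positions and exon lengths are from GENCODE M21 (GRCm38, which is mm10), promoters from RefSeq.

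Alternatives were pseudocounts of 0.1 and 2, TMM, upper-quartile and equal-total scaling, a mean value of at least 10, limma without trend, robust limma, array quality weights and leaving out each mouse. The limits taken from the study's methods were set for a count model that left out features of low coverage, and are applied here to limma. Counts of genes without overlap under other scalings were added after seeing the data.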

Additional observations from a re-analysis of the deposited data

How the results depend on the processing

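No paired analysis was possible because the mice carry different numbers in the groups. None of the settings tried called a member lower. Scaling to equal totals moved the median log2 fold change of all genes from 0.03 to 0.15. It gave 421 genes called higher and 195 lower, against 250 and 290 in the main fit. It called 1 member higher (Igfbp2), with 0 members lower without overlap. In the lists, 1 fibrillar matrix gene and 0 leptomeningeal genes were called lower, and 1 transcription factor was called higher. Without a trend 5 genes were called higher and 2 lower over the whole table, and 0 in every list, in either direction, so the calls among lists rest on the trend. Array quality weights gave 388 genes higher and 403 lower, with 1 fibronectin receptor gene higher and 2 growth factor axis genes lower. The robust fit gave 2 axis genes lower and 1 activated fibroblast gene higher. With pseudocount 0.1, TMM, upper-quartile scaling, a mean value of at least 10 or array quality weights, 1 leptomeningeal gene was called lower.

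Leaving out 1 mouse at a time, 39 to 489 genes were called higher and 28 to 365 lower, the lowest counts without ON-CR mouse 6 and the highest without ON-CR mouse 5. Members called were 0 to 1 higher and 0 lower, and their median log2 fold change was -0.46 to -0.25. Genes called lower were 0 to 4 for fibrillar matrix, 0 to 2 for the leptomeningeal list, 0 to 2 for transcription factors, and 0 to 1 for the growth factor axis, fibronectin receptors, activated fibroblasts, fibroblast receptors and the perineurial list. Called higher were 0 to 1 for the axis and fibronectin receptors and 1 to 2 for activated fibroblasts. Of the 150 single-member values, 142 kept direction and side of the threshold, 2 (Igfbp2) passed it and 6 changed sign, namely Foxc1 without ON-CR mouse 4 (-0.13), and Pdgfrl with upper-quartile scaling (0.0060), equal totals (0.10) and array weights (0.048), and without sham mouse 3 (0.09) or ON-CR mouse 5 (0.10). With single mice left out, Foxc1 ranged from -0.13 to 0.26 and Pdgfrl from -0.12 to 0.10. In the main fit, log2 fold changes were below 0 for 9 of 12 proteoglycans, 14 of 20 transcription factors and 9 of 13 growth factor axis genes. They were below 0 for 6 of 7 fibroblast receptors, 7 of 8 perineurial genes, 2 of 12 fibronectin receptor genes and 6 of 18 activated fibroblast genes. The median of every list kept its sign under each scaling and with each mouse left out, but not its size. With equal totals the medians were -0.22 for the 10 genes, -0.22 for fibrillar matrix, -0.11 for proteoglycans, -0.27 for the leptomeningeal list, -0.14 for transcription factors, -0.13 for the growth factor axis, -0.22 for fibroblast receptors, -0.21 for the perineurial list, 0.35 for fibronectin receptors and 0.32 for activated fibroblasts. The causes were not tested. With 3 mice per group, the intervals of single genes are wide.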
